A study of Musculus with 2 samples.

Results

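Col15a1 committed preadipocytes are fibroblast-like fat cell precursors of the stromal vascular fraction, the cells that remain of fat tissue once mature adipocytes are removed. Here they were the barcodes with 2 or more UMIs (unique molecules counted) of Col15a1 and at most 1 of Pi16, among cells with 10 or more UMIs of the stromal gene Dcn. Such a cell also had 0 UMIs of Ptprc, Pecam1 and Epcam (genes of immune, vessel and epithelial cells), fewer than 3 in all of Fmo2, Inmt and Gdf10, and fewer than 3 in all of the division genes Mki67 and Top2a. The choice rests on measured counts, so the levels of these 11 genes are given as description. The rule found 1532 cells among 24090 kept cells. Of these, 973 of 11664 came from the LPCAT3-AKO library and 559 of 12426 from the Control library.

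The study measured single-cell RNA of subcutaneous white adipose tissue (sWAT) with 10x Genomics droplets, in 1 library of LPCAT3-AKO mice (genotype given as LPCAT3 knockout) and 1 library of Control mice (genotype WT). LPCAT3 is an acyltransferase that favours polyunsaturated chains when it rebuilds phosphatidylcholine, the main membrane phospholipid, and the series is about insulin sensitivity once that rebuilding is inhibited in fat. The sample labels give an age of 5 weeks for both groups while the series text gives 2 months and a diet named CD, and neither gives the strain, the sex, the number of mice pooled per library, the exons deleted or the driver of the deletion. Tissue was minced and digested with collagenase, floating adipocytes were removed by centrifugation and red cells were lysed.

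Each genotype was measured in 1 library and so without replicates. No test between the genotypes was possible, and every difference between LPCAT3-AKO and Control describes this pair of libraries. Intervals in parentheses are exact 95% intervals that cover counting error only. The LPCAT3-AKO library held 119355147 UMIs in 12806 barcodes and the Control library 111669076 UMIs in 13831 barcodes. They shared 58 barcode sequences, of which 0 belonged to the preadipocytes described here. A preadipocyte had a median of 8313 UMIs and 2764 genes in the LPCAT3-AKO library, against 8707 UMIs and 2880 genes in the Control library. The median mitochondrial share was 2.56% in LPCAT3-AKO and 2.69% in Control preadipocytes.

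White adipose stroma holds several fibroblast populations that can give rise to fat cells. Cells of the interstitium that carry Dpp4 and Pi16 are held to be the earlier progenitors. Cells that carry Icam1, Pparg and Col15a1 lie closer to vessels and are known as committed preadipocytes, because they turn on the nuclear receptor PPARgamma and fatty acid handling genes readily. Type XV collagen, the product of Col15a1, belongs to the basement membrane zone, the thin matrix sheet that wraps vessels and fat cells.

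Committed preadipocytes took a larger share of the stroma in the LPCAT3-AKO library. They made up 17.5% (16.5 to 18.5) of the 5575 Dcn-high cells of that library, against 10.2% (9.45 to 11.1) of the 5460 Dcn-high cells of the Control library. The ratio of these shares was 1.70 (1.53 to 1.89). Over all kept cells the share was 8.34% in LPCAT3-AKO and 4.50% in Control, a ratio of 1.85 (1.67 to 2.06). Dcn-high cells as a whole made up 47.8% of kept LPCAT3-AKO and 43.9% of kept Control cells, so most of the gap lay within the stroma.

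The remaining Dcn-high cells fell into classes defined by the same counts. Pi16-high cells (2 or more UMIs of Pi16, at most 1 of Col15a1) made up 57.2% (55.9 to 58.5) of Dcn-high LPCAT3-AKO and 72.1% (70.9 to 73.3) of Dcn-high Control cells, a ratio of 0.794 (0.757 to 0.832). Cells with 3 or more summed UMIs of Fmo2, Inmt and Gdf10 made up 14.2% of Dcn-high LPCAT3-AKO and 8.63% of Dcn-high Control cells, a ratio of 1.65 (1.47 to 1.85). Cells low in both Col15a1 and Pi16 made up 3.34% in LPCAT3-AKO and 3.52% in Control. The last class held dividing cells and cells with 2 or more UMIs of both Col15a1 and Pi16. It made up 7.78% in LPCAT3-AKO and 5.55% in Control, a ratio of 1.40 (1.21 to 1.63). These shares sum to a whole, so a larger preadipocyte share and a smaller Pi16-high share are not independent measurements.

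**Figure D1:**
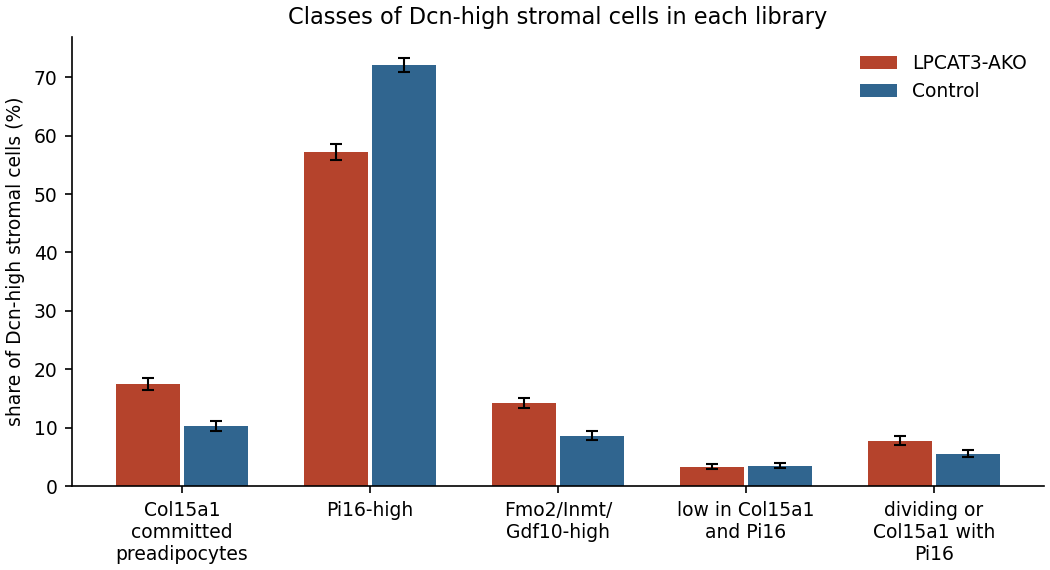
Share of Dcn-high stromal cells in percent (vertical axis) for 5 classes (horizontal axis), with LPCAT3-AKO left of Control in each pair. Error bars are exact 95% binomial intervals, which cover counting error only. Committed preadipocytes stand at 17.5% in LPCAT3-AKO against 10.2% in Control.

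Lpcat3, the gene named in the genotype, was present in preadipocytes of both libraries. Its level, as the gene's UMIs summed over the preadipocytes of a library, per 1000000 of all their UMIs (CPM), was 41.8 CPM in LPCAT3-AKO and 43.9 CPM in Control, with UMIs in 279 LPCAT3-AKO and 177 Control cells. The log2 ratio of LPCAT3-AKO over Control was -0.07, and the counting interval of the ratio, 0.803 to 1.13, included 1. Because 10x tags may come from a stretch of the transcript that was not deleted, this level checks nothing about the deletion. The driver of the deletion is not given, so whether these cells carried it is not known. Committed preadipocytes carried more Lpcat3 per UMI than the Pi16-high cells beside them, which had 23.3 CPM in LPCAT3-AKO and 22.8 CPM in Control.

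The label was set beside 6 marker genes: Col15a1, which the rule used, and Fabp4, Lpl, Icam1, Pparg and Sparcl1, which it did not. A gene counted as higher or lower when it passed a size rule. Its level had to reach 20 CPM in the group where it was higher, the groups had to differ by a factor of at least 1.5, and the counting interval of their ratio had to leave out 1. Between preadipocytes and other cells a call also had to hold in the same direction in both libraries. The 5 markers that the rule did not use were all higher in the preadipocytes than in all other Dcn-high cells, than in Pi16-high cells and than in Fmo2/Inmt/Gdf10-high cells. Icam1 was not set apart from cells low in Col15a1 and Pi16, which had 144 CPM in LPCAT3-AKO and 254 CPM in Control. Preadipocytes had Icam1 at 165 CPM in LPCAT3-AKO and 238 CPM in Control. The markers were chosen with earlier results of these data known, so their levels describe the cells and do not test the label.

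Fabp4, the fatty acid carrier of adipocytes, had 3144 CPM in LPCAT3-AKO preadipocytes and 58.5 CPM in LPCAT3-AKO Pi16-high cells. In the Control library Fabp4 had 3730 CPM in preadipocytes and 45.3 CPM in Pi16-high cells. Preadipocytes and Pi16-high cells thus lay far apart in Fabp4 in both libraries.

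Lpl, the secreted lipase that frees fatty acids from lipoproteins, had 5442 CPM in LPCAT3-AKO preadipocytes against 375 CPM in Pi16-high cells. In Control it had 4924 CPM in preadipocytes against 258 CPM in Pi16-high cells. Ptprc-positive cells with 0 or 1 UMI of Dcn had Lpl at 516 CPM in LPCAT3-AKO and 482 CPM in Control. With cells thinned to 4000 UMIs, Lpl was seen in 63.3% of LPCAT3-AKO and 52.2% of Control Pi16-high cells. Among those Ptprc-positive cells it was seen in 39.2% of LPCAT3-AKO and 38.9% of Control cells. How much of the Pi16-high level came from free RNA in the droplets was not tested. Pparg, the master regulator of fat cell formation, had 30.3 CPM in preadipocytes and 2.57 CPM in Pi16-high cells of the LPCAT3-AKO library. In the Control library Pparg had 27.7 CPM in preadipocytes and 1.68 CPM in Pi16-high cells. Sparcl1, a matricellular protein, had 832 CPM in LPCAT3-AKO preadipocytes against 16.2 CPM in Pi16-high cells, and 815 CPM in Control preadipocytes against 11.4 CPM in Pi16-high cells. Icam1, a cell adhesion receptor, had the smallest ratio of the 6 against the other Dcn-high cells. It had 165 CPM in LPCAT3-AKO preadipocytes against 53.1 CPM in Pi16-high cells, and 238 CPM in Control preadipocytes against 53.0 CPM in Pi16-high cells.

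Col15a1 itself, which chose the cells, had 1047 CPM in LPCAT3-AKO and 823 CPM in Control preadipocytes. Pi16, kept at 1 UMI or fewer, had 33.4 CPM in LPCAT3-AKO and 35.1 CPM in Control preadipocytes. Of the genes that had to sum to fewer than 3 UMIs, Fmo2 had 18.7 CPM in LPCAT3-AKO and 21.8 CPM in Control, Inmt 6.04 CPM in LPCAT3-AKO and 2.75 CPM in Control, and Gdf10 33.8 CPM in LPCAT3-AKO and 36.9 CPM in Control. Mki67 and Top2a had 1.82 and 2.39 CPM in LPCAT3-AKO and 0.588 and 0.981 CPM in Control. Dcn, required at 10 UMIs, had 9772 CPM in LPCAT3-AKO and 9568 CPM in Control. Ptprc, Pecam1 and Epcam were at 0 by the rule.

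Droplets also take up free RNA, so shares of cells with a UMI were set beside those in Ptprc-positive cells. At 4000 UMIs per cell, which left out 62 LPCAT3-AKO and 20 Control preadipocytes, Sparcl1 was seen in 78.8% of LPCAT3-AKO and 82.2% of Control preadipocytes (unthinned, 90.2% of LPCAT3-AKO and 89.3% of Control). Among Ptprc-positive cells with 0 or 1 UMI of Dcn, Sparcl1 was seen in 3.18% of LPCAT3-AKO and 2.59% of Control cells at the same depth, from medians of 7371 UMIs in LPCAT3-AKO and 6777 UMIs in Control. Col18a1, another basement membrane collagen, was seen in 69.6% of LPCAT3-AKO and 72.2% of Control preadipocytes and in 1.5% of LPCAT3-AKO and 1.22% of Control Ptprc-positive cells. The shares in preadipocytes thus lay far above that background. Pparg was close to the depth limit, with a UMI in 11.7% of LPCAT3-AKO and 9.83% of Control preadipocytes at 4000 UMIs, against 3.48% of LPCAT3-AKO and 3.81% of Control Ptprc-positive cells.

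**Figure D2:**
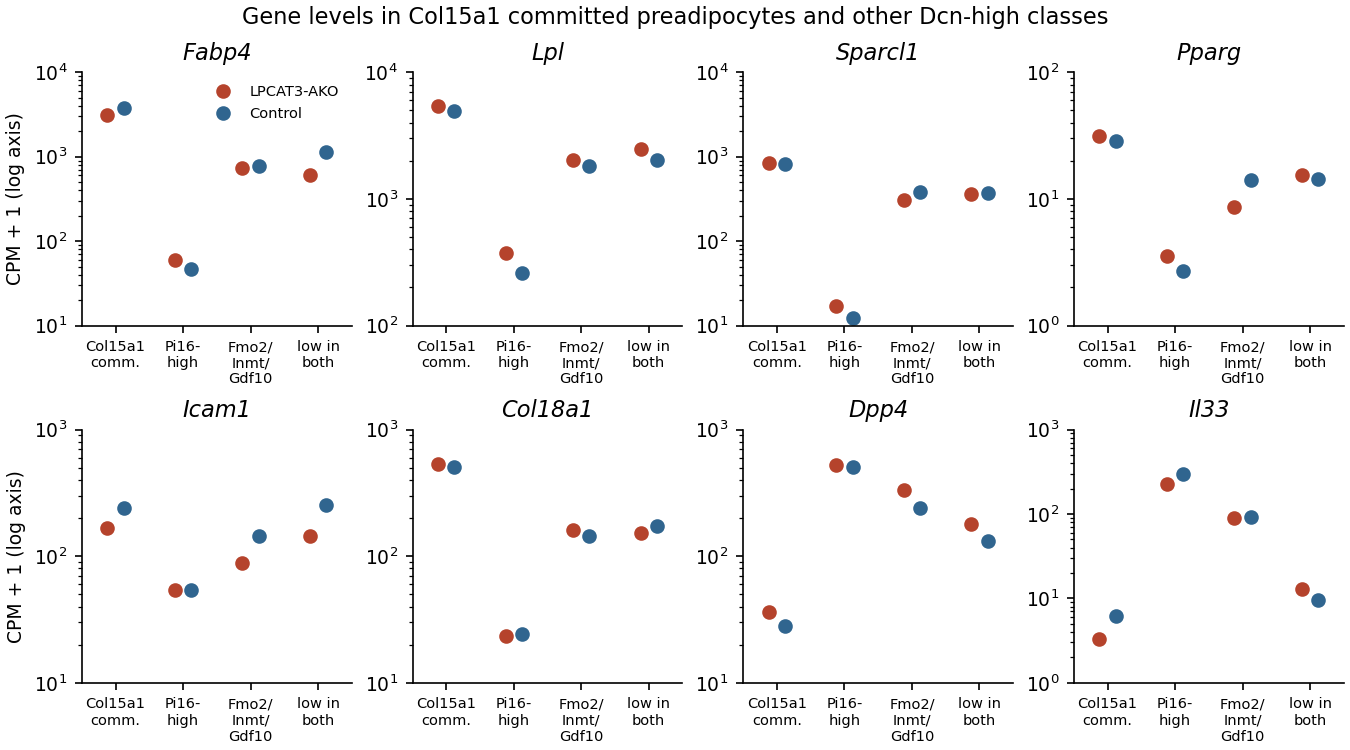
Level of 8 genes (vertical axes, CPM + 1, log scale, with a different range per gene) in 4 classes of Dcn-high cells (horizontal axes), with LPCAT3-AKO left of Control, 1 summed value per library and class. Fabp4, Lpl, Sparcl1, Pparg and Col18a1 are highest in the preadipocytes of both libraries, while Dpp4 and Il33 are lowest there. Icam1 is highest in the preadipocytes of LPCAT3-AKO, but in Control it is highest in cells low in Col15a1 and Pi16.

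Fabp4 and Lpl levels climbed with the Col15a1 count rather than stepping at the limit of 2 UMIs. Cells were compared that met every other condition and had 0, 1, 2, 3 to 4, or 5 or more Col15a1 UMIs. In the LPCAT3-AKO library Fabp4 had 328, 888, 1332, 1575 and 3535 CPM in these tiers. In the Control library Fabp4 had 697, 1672, 2192, 2487 and 4326 CPM. Fabp4 thus already stood at 888 CPM in LPCAT3-AKO and 1672 CPM in Control cells that missed the rule by 1 UMI. Lpl had 1923, 3077, 3616, 4030 and 5811 CPM in LPCAT3-AKO and 1518, 2682, 2915, 3965 and 5512 CPM in Control. Icam1 did not climb, with 162, 124, 149, 167 and 166 CPM in LPCAT3-AKO and 216, 301, 264, 248 and 231 CPM in Control. Dpp4, a surface peptidase of interstitial progenitors, ran the other way, with 226, 126, 91.5, 52.2 and 27.6 CPM in LPCAT3-AKO and 169, 79.7, 63.4, 50.4 and 14.7 CPM in Control.

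Col15a1 counts follow depth, and the tiers differ in it. Cells with 0 and with 5 or more Col15a1 UMIs had medians of 5620 and 9040 UMIs in LPCAT3-AKO and of 6762 and 9355 UMIs in Control. Cells at 5 or more UMIs made up 727 of the 973 LPCAT3-AKO and 358 of the 559 Control preadipocytes, so the mix of tiers also differed between the libraries.

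Fabp4 was also lower past the Pi16 limit. Col15a1-positive cells with 2 Pi16 UMIs, just outside the rule, had Fabp4 at 1946 CPM in 92 LPCAT3-AKO cells and 3033 CPM in 68 Control cells. Those with 1 Pi16 UMI, just inside, had Fabp4 at 3510 CPM in LPCAT3-AKO and 3450 CPM in Control, and those with 0 at 2980 CPM in LPCAT3-AKO and 3866 CPM in Control. At 3 or more Pi16 UMIs, Fabp4 had 641 CPM in LPCAT3-AKO and 513 CPM in Control, and Dpp4 258 CPM in LPCAT3-AKO and 291 CPM in Control. Of the cells left out for division, 23 in LPCAT3-AKO had Fabp4 at 4370 CPM and 3 in Control had it at 11275 CPM.

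**Figure D3:**
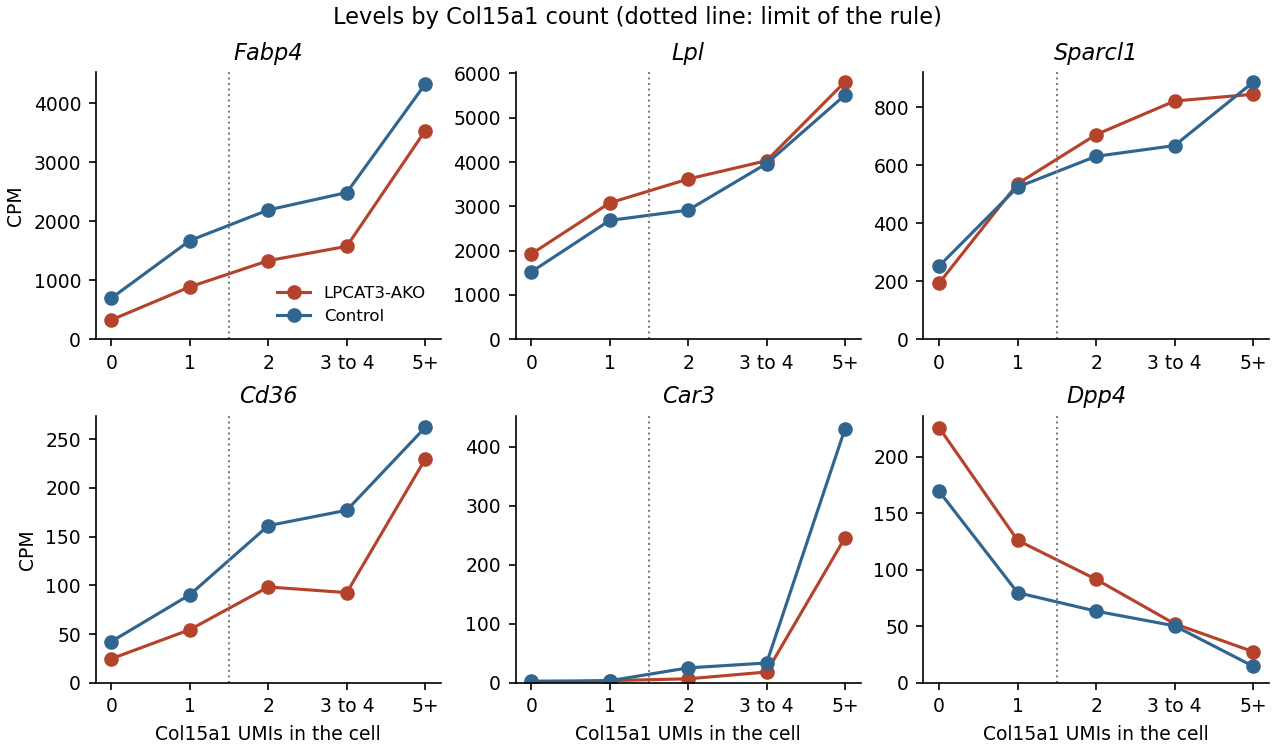
Level in CPM (vertical axes, from 0) of 6 genes in Dcn-high cells grouped by their Col15a1 UMIs (horizontal axes), for LPCAT3-AKO and Control, 1 summed value per library and tier; cells right of the dotted line met the rule. Fabp4, Lpl, Sparcl1 and Cd36 climb from the lowest to the highest tier, Car3 appears mainly at 5 or more UMIs, and Dpp4 declines.

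Set against all other Dcn-high cells, the preadipocytes differed in a large share of genes. The cells were chosen by counts of the same RNA, so the comparisons with other cells are descriptions. Of 6253 genes tested in both libraries, 577 (9.23%) were higher and 643 (10.3%) were lower in preadipocytes in both libraries, and 0 were called in opposite directions. These shares of all genes stand beside every list count given below against the other Dcn-high cells. Most of those other cells were Pi16-high, 3189 of 4602 in LPCAT3-AKO and 3935 of 4901 in Control. Against Pi16-high cells alone, 755 of 6291 genes (12%) were higher and 723 (11.5%) lower. Fewer genes passed against the Fmo2/Inmt/Gdf10-high cells, where 265 of 6137 (4.32%) were higher and 381 (6.21%) lower. Those shares of all genes stand beside each list count given below against that class. Fewest passed against the cells low in Col15a1 and Pi16, with 197 of 6167 (3.19%) higher and 237 (3.84%) lower. The last class held only 186 LPCAT3-AKO and 192 Control cells.

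Car3, the carbonic anhydrase III of fat and muscle, led the genes higher in preadipocytes. It had 202 CPM in LPCAT3-AKO preadipocytes against 19.7 CPM in the other Dcn-high cells, a log2 ratio of 3.29, and 308 CPM against 4.02 CPM in Control, a log2 ratio of 5.94. Few cells carried it: 124 of 973 LPCAT3-AKO and 104 of 559 Control preadipocytes had a UMI, and the top 3 cells held 42.1% of the LPCAT3-AKO and 56.1% of the Control UMIs. Fabp4 followed, with log2 ratios of 3.17 in LPCAT3-AKO and 3.98 in Control. Cited1, a transcriptional co-activator, had 106 CPM against 11.0 CPM in LPCAT3-AKO and 89.8 CPM against 4.94 CPM in Control. Adam12, a membrane metalloprotease, had 234 CPM against 28.4 CPM in LPCAT3-AKO and 249 CPM against 21.2 CPM in Control.

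Others of this leading group were matrix, signalling and uptake genes. Lamc3, a laminin chain, had log2 ratios of 2.89 in LPCAT3-AKO and 3.48 in Control, and Col18a1 of 2.78 in LPCAT3-AKO and 3.27 in Control. S1pr3, a sphingosine-1-phosphate receptor, had 3.01 in LPCAT3-AKO and 3.12 in Control, and Sema3g, a secreted semaphorin, 2.75 in LPCAT3-AKO and 3.49 in Control. Cd36, the fatty acid transporter, had 2.88 in LPCAT3-AKO and 3.31 in Control, and Epas1, the hypoxia-inducible factor HIF-2alpha, 2.77 in LPCAT3-AKO and 2.90 in Control. Olfm2, Cldn15, Arc, Sparcl1 and Spaar complete the 15 highest, with log2 ratios of 2.77 to 3.49 over both libraries.

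Of the 10 genes lowest in preadipocytes, Akr1c18, Smpd3, Limch1 and Krtdap are on the list of interstitial progenitor markers. Il33, an alarmin cytokine held in the nucleus, had 2.28 CPM in LPCAT3-AKO preadipocytes against 176 CPM in the other Dcn-high cells, and 5.10 CPM in Control preadipocytes against 253 CPM. Akr1c18, a progesterone-metabolising reductase, had 7.17 CPM against 338 CPM in LPCAT3-AKO and 10.4 CPM against 385 CPM in Control. Aldh1a3, which makes retinoic acid, had log2 ratios of -5.08 in LPCAT3-AKO and -5.07 in Control. Smpd3, a neutral sphingomyelinase, had -4.98 in LPCAT3-AKO and -5.19 in Control. Car8, Cldn11, Mrgprg, Ptgs2os, Limch1 and Krtdap were the others, between -5.51 and -4.45.

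Of the list of 26 interstitial progenitor markers, all tested, 25 were lower in preadipocytes and 0 higher, with a median log2 ratio of -2.74 in LPCAT3-AKO and -3.08 in Control. Over all genes tested that median was 0.10 in LPCAT3-AKO and 0.12 in Control. The list includes Pi16, which the rule used, and several of its genes were picked for marking cells on the other side of that limit, so its direction is a description. Dpp4 had 35.0 CPM in LPCAT3-AKO preadipocytes against 442 CPM in the other Dcn-high cells, and 27.1 CPM in Control preadipocytes against 447 CPM. Cd55, a complement brake on the cell surface, had log2 ratios of -2.39 in LPCAT3-AKO and -2.55 in Control, and Sema3c, another semaphorin, -3.61 in LPCAT3-AKO and -3.78 in Control. The list held elastic-fibre genes too: Fbn1 (fibrillin-1) had -1.20 in LPCAT3-AKO and -1.34 in Control, and Mfap5 (a microfibril protein) -1.16 in LPCAT3-AKO and -1.44 in Control.

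Genes of fatty acid uptake and lipid storage were mostly higher in preadipocytes. Of 23 tested, 14 were higher and 2 lower in both libraries, with medians of 1.06 in LPCAT3-AKO and 1.15 in Control. Plin2, a lipid droplet coat protein, had 301 CPM in LPCAT3-AKO preadipocytes against 86.8 CPM in the other Dcn-high cells, and 286 CPM in Control preadipocytes against 71.1 CPM. Plin4, another droplet coat, had log2 ratios of 2.59 in LPCAT3-AKO and 3.04 in Control. Fabp5, a further fatty acid carrier, had 2.03 in LPCAT3-AKO and 2.08 in Control, and Fitm2, a droplet formation protein of the endoplasmic reticulum, 1.54 in LPCAT3-AKO and 1.70 in Control. The exceptions were Mgll, which breaks down monoglycerides, at -3.19 in LPCAT3-AKO and -2.63 in Control, and Acsl4, which activates polyunsaturated fatty acids, at -0.77 in LPCAT3-AKO and -0.74 in Control.

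Mature adipocyte products remained rare. Adipoq (adiponectin) had a UMI in 4 LPCAT3-AKO and 1 Control preadipocytes, and Plin1, the main droplet coat of fat cells, in 8 in LPCAT3-AKO and 5 in Control. Of the 17 listed secreted and mature adipocyte genes, 3 reached 20 CPM in either library. Car3 and Rbp4 (retinol-binding protein 4) were the pair higher than in the other Dcn-high cells, and Rbp4 had 91.1 CPM against 20.7 CPM in LPCAT3-AKO and 166 CPM against 28.3 CPM in Control.

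The adipogenic transcription factors went both ways. Of 23 tested, 4 were higher and 6 lower. The higher were Pparg, Cebpa (which works with it), Nr1h3 (the oxysterol receptor LXRalpha) and Egr2 (an early activator of fat cell formation). Cebpa had 24.5 CPM against 9.38 CPM in LPCAT3-AKO and 21.0 CPM against 8.40 CPM in Control. Egr2 had 78.7 CPM against 22.5 CPM in LPCAT3-AKO and 70.8 CPM against 23.0 CPM in Control. The lower were Ebf2, Ebf3, Klf2, Klf4, Zbtb16 and Zfp521. Among them Zfp521, which holds back Ebf factors in fat precursors, had log2 ratios of -0.93 in LPCAT3-AKO and -0.90 in Control, and Klf2, a repressor of Pparg, -1.23 in LPCAT3-AKO and -1.18 in Control. Against Fmo2/Inmt/Gdf10-high cells, the same 4 of 23 were higher, and 2 (Ebf2 and Zfp521) were lower.

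Sterol genes stood higher as well. Of 12 tested genes of cholesterol synthesis and sterol sensing, 7 were higher and 0 lower, with medians of 0.62 in LPCAT3-AKO and 0.74 in Control. Hmgcs1, an early enzyme of the pathway, had 83.9 CPM against 28.6 CPM in LPCAT3-AKO and 100 CPM against 29.8 CPM in Control. Insig1, which holds the sterol sensor in the endoplasmic reticulum, had log2 ratios of 1.32 in LPCAT3-AKO and 1.55 in Control, and Srebf2, the sterol-responsive factor, 0.58 in LPCAT3-AKO and 0.72 in Control. Among 17 tested LXR targets and efflux genes, 6 were higher, Apoe, Pltp and Nr1h3 among them, and 4 were lower, including the exporter Abca1. Against Fmo2/Inmt/Gdf10-high cells, 4 of 12 sterol genes were higher, Hmgcs1 and Insig1 among them, and 0 lower. Of 17 LXR targets and efflux genes, 2 were higher there (Lpl and Nr1h3) and 4 lower. Srebf2, Apoe, Pltp and Abca1 did not pass in that comparison.

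Of the enzymes of phospholipid acyl remodelling and phosphatidylcholine synthesis, 7 of 26 tested were higher and 2 lower, with medians of 0.21 in LPCAT3-AKO and 0.39 in Control. Over all genes tested, 9.23% were higher and 10.3% lower. Lpcat3 was among the higher, with log2 ratios of 0.61 in LPCAT3-AKO and 0.78 in Control against the other Dcn-high cells. Mboat7, which places arachidonate into phosphatidylinositol, had 0.58 in LPCAT3-AKO and 0.79 in Control, and Agpat5, an acyltransferase of phosphatidic acid synthesis, 0.93 in LPCAT3-AKO and 0.91 in Control. Enpp2, the secreted enzyme autotaxin that makes lysophosphatidic acid, had 170 CPM against 27.0 CPM in LPCAT3-AKO and 153 CPM against 18.3 CPM in Control. Agpat2, Plpp1 and Selenoi were the other genes higher. The lower genes were Pla2g4a, the arachidonate-releasing phospholipase, at -1.12 in LPCAT3-AKO and -1.19 in Control, and Plpp3, a lipid phosphatase, at -1.11 in LPCAT3-AKO and -0.92 in Control. Against Fmo2/Inmt/Gdf10-high cells, Agpat5 and Enpp2 were the only genes of this list higher, the same 2 were lower, and Lpcat3 did not pass.

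Basement membrane genes separated into a higher and a lower group. Of 22 tested genes on the list, 10 were higher and 5 lower. The 10 include Col15a1, used by the rule, the marker Sparcl1, and Peg3, a zinc finger gene. Col4a1, a type IV collagen chain and core of the sheet, had 2785 CPM against 515 CPM in LPCAT3-AKO and 2571 CPM against 369 CPM in Control. Its partner Col4a2 had log2 ratios of 2.55 in LPCAT3-AKO and 2.79 in Control. Nid2 (nidogen-2, a linker of the sheet) had 1.83 in LPCAT3-AKO and 2.02 in Control, and Lamb1 (a laminin chain) 1.29 in LPCAT3-AKO and 1.26 in Control. Hspg2 (the heparan sulphate proteoglycan perlecan) had 1.18 in LPCAT3-AKO and 1.07 in Control. Frem1, a basement membrane adhesion protein, had 2.75 in LPCAT3-AKO and 3.11 in Control. Other chains of the same families went the other way: Col4a5 had -1.70 in LPCAT3-AKO and -1.69 in Control, and Lamb2 -1.26 in LPCAT3-AKO and -1.39 in Control.

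The interstitial matrix was likewise divided, with 15 of 46 genes higher and 15 lower. Postn (periostin) had 4944 CPM against 1198 CPM in LPCAT3-AKO and 4241 CPM against 986 CPM in Control. Col3a1, a fibrillar collagen, had 24231 CPM against 10730 CPM in LPCAT3-AKO and 18931 CPM against 9629 CPM in Control. The lower side held elastic-fibre genes such as Fbn1, Fbln5 and Eln, and Col14a1, a fibril-associated collagen, at log2 ratios of -1.89 in LPCAT3-AKO and -2.25 in Control. Against Fmo2/Inmt/Gdf10-high cells, 6 of 46 were higher, Postn among them, and 15 lower, and Col3a1 and Fbln5 did not pass. Among proteases and inhibitors, 10 of 37 were higher and 8 lower. Mmp3, a matrix metalloprotease, had log2 ratios of 1.24 in LPCAT3-AKO and 1.82 in Control. Mmp19, another, had 1.37 in LPCAT3-AKO and 1.67 in Control. Timp1, an inhibitor of such proteases, had 1.56 in LPCAT3-AKO and 1.79 in Control. Of these 37 genes, 4 were higher and 6 lower than in Fmo2/Inmt/Gdf10-high cells, and Mmp3 did not pass there.

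Of 31 tested genes, of 62 listed as growth and angiogenic genes, 11 were higher and 11 lower. Fgf10, a factor needed for fat pad growth, had 339 CPM against 54.5 CPM in LPCAT3-AKO and 345 CPM against 34.2 CPM in Control. Ptn and Mdk are a related pair of heparin-binding factors. Ptn had log2 ratios of 2.66 in LPCAT3-AKO and 3.31 in Control, and Mdk of 2.38 in LPCAT3-AKO and 2.73 in Control. Hgf, a growth factor for epithelium and vessels, had 1.83 in LPCAT3-AKO and 2.07 in Control. On the lower side Fgf2, a fibroblast growth factor, had -2.82 in LPCAT3-AKO and -2.87 in Control, and Pdgfc, a platelet-derived growth factor, -3.33 in LPCAT3-AKO and -2.68 in Control. The BMP and TGF-beta list leaned lower, with 5 of 33 higher and 11 lower. Bmp7 and Bmp4, both ligands, were nearly absent from preadipocytes, at 1.48 and 3.07 CPM in LPCAT3-AKO and 1.77 and 2.35 CPM in Control. Bmper, a secreted BMP-binding protein, had 145 CPM against 31.9 CPM in LPCAT3-AKO and 172 CPM against 20.8 CPM in Control.

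Wnt10b, a Wnt ligand that blocks fat cell formation, had 0.683 CPM in LPCAT3-AKO preadipocytes against 28.0 CPM in the other Dcn-high cells, and 0.392 CPM in Control preadipocytes against 30.5 CPM. In all, 6 of 18 listed Wnt pathway genes were higher, with the receptor Fzd4 at log2 ratios of 1.16 in LPCAT3-AKO and 1.48 in Control, and 4 were lower. Against Fmo2/Inmt/Gdf10-high cells, 3 of 17 were higher and 6 lower, and Fzd4 did not pass.

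Among inflammatory and interferon genes, more were lower than higher in preadipocytes against the other Dcn-high cells. Of 34 inflammatory and NF-kB genes tested, 8 were higher and 16 lower. Ptgs2 (cyclooxygenase-2, the inducible prostaglandin enzyme) had 18.3 CPM against 595 CPM in LPCAT3-AKO and 35.9 CPM against 774 CPM in Control. Of 44 interferon-response genes, 1 was higher and 15 lower, with medians of -0.57 in LPCAT3-AKO and -0.40 in Control. The higher inflammatory genes included the adhesion receptor Vcam1, at 1.67 in LPCAT3-AKO and 2.12 in Control, and the chemokines Cxcl14, at 2.64 in LPCAT3-AKO and 2.47 in Control, and Cxcl12, at 0.89 in LPCAT3-AKO and 1.18 in Control. Against Fmo2/Inmt/Gdf10-high cells, 3 of 33 inflammatory genes were higher (Icam1, Tril and Vcam1) and 10 lower. Cxcl12 and Cxcl14 did not pass there. Of 43 interferon-response genes, 0 were higher and 8 lower in that comparison.

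Between the libraries the preadipocytes differed in few genes. Among the 6271 genes that reached 20 CPM in at least 1 library, LPCAT3-AKO preadipocytes had 73 (1.16%) higher and 112 (1.79%) lower than Control preadipocytes, and the median log2 ratio over all of them was -0.02. In Pi16-high cells of the same libraries, 39 of 5934 (0.657%) were higher and 49 (0.826%) lower. Larger classes give narrower counting intervals and preadipocytes are the smaller class, so these shares do not rank the classes.

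None of the markers, lipid storage genes or adipogenic factors passed the size rule between the libraries. Of the 6 committed preadipocyte markers, 0 passed either way, with a median of 0.08. Lpl had a log2 ratio of 0.14, Sparcl1 0.03, Pparg 0.13, Fabp4 -0.25 and Icam1 -0.53. Icam1 lay close to the ratio of 1.5 and passed as lower under 3 of 18 alternatives, at up to -0.62 with Col15a1 tiers weighted alike. Of 22 lipid uptake and storage genes, 0 passed, with a median of -0.11, and of 22 adipogenic factors, 0 passed, with a median of -0.04. Angptl4, an inhibitor of LPL, had 593 CPM in LPCAT3-AKO and 564 CPM in Control, and Lrp1, an uptake receptor, 650 CPM in LPCAT3-AKO and 594 CPM in Control. Cebpd, an early adipogenic factor, had 653 CPM in LPCAT3-AKO and 659 CPM in Control, and Ebf1, a pioneer of the lineage, 700.1 CPM in LPCAT3-AKO and 698 CPM in Control. Klf4 had 812 CPM in LPCAT3-AKO and 868 CPM in Control, and Klf9 774 CPM in LPCAT3-AKO and 775 CPM in Control.

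Cntfr, the receptor chain for ciliary neurotrophic factor of the IL-6 family, had the highest ratio of the genes open to naming. It had 27.6 CPM in LPCAT3-AKO and 4.90 CPM in Control preadipocytes, a ratio of 5.62 (3.72 to 8.86). It was spread over cells: 168 of 973 LPCAT3-AKO and 23 of 559 Control preadipocytes had a UMI, and no cell had more than 6. At 4000 UMIs per cell it was seen in 8.12% of LPCAT3-AKO and 1.86% of Control preadipocytes, against 0.215% of LPCAT3-AKO and 0.0719% of Control Ptprc-positive cells. Its log2 ratio was 2.27 in preadipocytes, 1.96 in Pi16-high cells and 1.09 in Fmo2/Inmt/Gdf10-high cells. The direction was thus the same in these other classes.

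AI506816 had 43.3 CPM in LPCAT3-AKO and 12.9 CPM in Control preadipocytes, in 254 LPCAT3-AKO and 57 Control cells, a log2 ratio of 1.67, and passed the rule in Pi16-high cells too, at 1.16 in log2. S100a4, a calcium-binding protein of motile fibroblasts, had 115 CPM in LPCAT3-AKO and 53.2 CPM in Control, a log2 ratio of 1.10, against 0.15 in Pi16-high cells. Itgbl1, an integrin-like secreted protein, had a log2 ratio of 1.19, Pycr1, an enzyme of proline synthesis, 1.15, and Entpd1, the ATP-degrading enzyme CD39, 1.09. Map2, Cilp, Dkk2, Cpe, Tm4sf1 and Mical2 had log2 ratios of 0.90 to 1.01, and Mical2 had 0.08 in cells thinned to 4000 UMIs. Of these, Cilp, a matrix protein of cartilage, also passed the rule in Pi16-high cells, at 1.13, and Dkk2, a Wnt inhibitor, in Fmo2/Inmt/Gdf10-high cells, at 0.83, where 1.7% of 6188 genes were higher.

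The highest ratios of all belonged to genes of other cells that sat in single barcodes. Hbb-bs, a haemoglobin chain, had 869 UMIs in LPCAT3-AKO preadipocytes, of which 817 came from 1 cell, and 6 UMIs in Control. Cma1, a mast cell protease, had 216 UMIs in LPCAT3-AKO, of which 163 came from 1 cell, and 11 in Control. In all, 15 LPCAT3-AKO and 4 Control preadipocytes held 3 or more UMIs of haemoglobin, mast cell or mature adipocyte genes. Leaving these cells out gave a ratio of preadipocyte shares of 1.70, as with them.

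**Figure D4:**
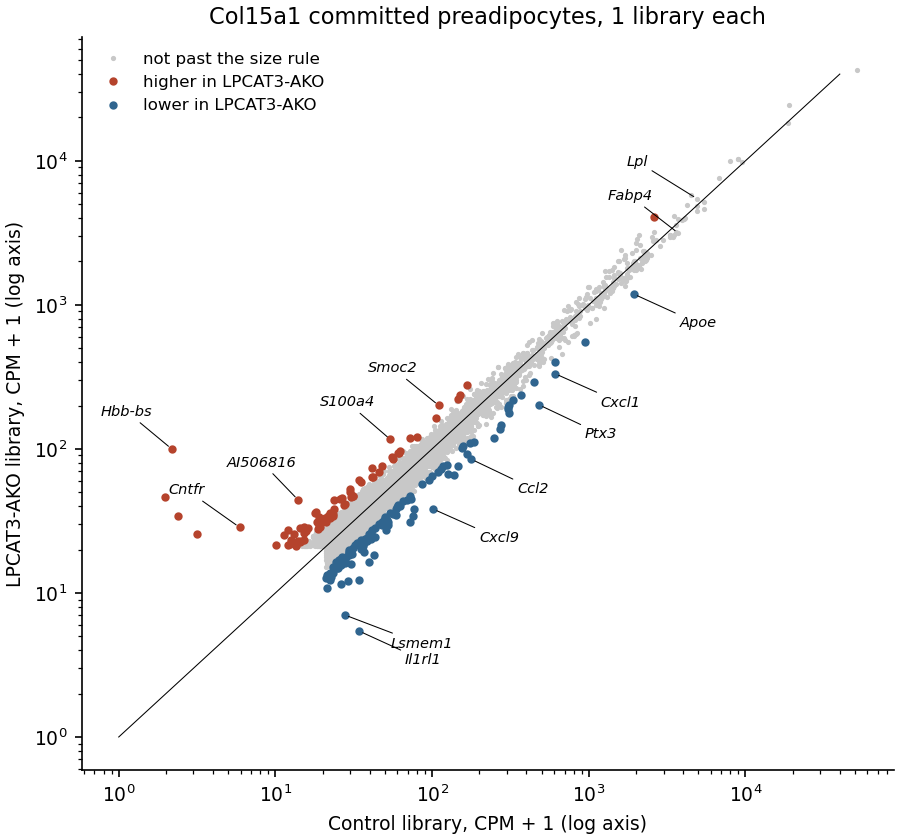
Each point is a gene at 20 CPM or more in either library, with its level in LPCAT3-AKO preadipocytes (vertical axis) against that in Control preadipocytes (horizontal axis), both as CPM + 1 on log axes; the line marks equal levels. The 73 genes higher in LPCAT3-AKO are red and the 112 lower are blue, and Fabp4 and Lpl lie among the grey genes that did not pass.

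Inflammatory genes made up a visible part of the lower side. Of 33 inflammatory and NF-kB genes tested, 12 were lower and 1 (Tril, an adaptor of Toll-like receptors) higher in LPCAT3-AKO preadipocytes, against 1.79% and 1.16% of all genes. The list median was -0.43, against -0.02 over all genes. In all, 25 of the 33 had a log2 ratio below 0.

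Ptx3, a secreted pattern recognition protein, had 201 CPM in LPCAT3-AKO and 480 CPM in Control preadipocytes, a ratio of 0.419 (0.394 to 0.446). Cxcl1, a neutrophil-attracting chemokine, had 332 CPM in LPCAT3-AKO and 607 CPM in Control, and Ccl2, a monocyte-attracting chemokine, 83.8 CPM in LPCAT3-AKO and 177 CPM in Control. Ccl2 was seen in 195 LPCAT3-AKO and 173 Control preadipocytes, and the top 3 cells held 26.0% of its LPCAT3-AKO and 28.6% of its Control UMIs. Nfkbia, the inhibitor that NF-kB induces, had 399 CPM in LPCAT3-AKO and 605 CPM in Control, in 757 LPCAT3-AKO and 494 Control cells, and was the most broadly seen of the 12. Cxcl2, Cxcl13, Il6, Ptgs2, Tnfaip3, Ccl19 and Ccl8 had log2 ratios of -1.22 to -0.59. Cxcl2 had -0.43 at 3 or more Col15a1 UMIs, where it did not pass, and -2.17 with Col15a1 tiers weighted alike.

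Il1rl1, the receptor of IL-33, had the lowest ratio of the genes open to naming, with 4.44 CPM in LPCAT3-AKO and 33.2 CPM in Control, a log2 ratio of -2.65. It was carried by few cells, 19 in LPCAT3-AKO and 26 in Control, and the top 3 Control cells held 63.9% of the Control UMIs. The ratio was low in Pi16-high cells too, at -2.34. Cxcl9, an interferon-induced chemokine, had 37.2 CPM in LPCAT3-AKO and 100.4 CPM in Control, from 107 of 973 LPCAT3-AKO and 47 of 559 Control cells, and the top 3 Control cells held 57.4% of the Control UMIs. At 4000 UMIs per cell, Cxcl9 was seen in 5.6% of LPCAT3-AKO and 5.57% of Control preadipocytes. In Pi16-high cells its level was 15.7 CPM in LPCAT3-AKO and 3.74 CPM in Control.

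Interferon-response genes followed the same direction with smaller ratios. Of 41 tested, 11 were lower and 0 higher, with a median of -0.38, and 35 had a log2 ratio below 0. Rsad2 (viperin, an antiviral enzyme) had 11.3 CPM in LPCAT3-AKO and 33.4 CPM in Control, a log2 ratio of -1.48. Iigp1, an interferon-induced GTPase, had 101 CPM in LPCAT3-AKO and 153 CPM in Control, Ifit1, an antiviral RNA-binding protein, 59.7 CPM in LPCAT3-AKO and 94.5 CPM in Control, and Ifih1, an RNA sensor, 38.3 CPM in LPCAT3-AKO and 59.0 CPM in Control. Ifit3 had 30.0 CPM in LPCAT3-AKO and 51.0 CPM in Control. Many of the 11 lay close to the ratio of 1.5. With doublet-like cells removed, 7 genes of the list were lower, and with Col15a1 tiers weighted alike 6.

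Pi16-high cells showed the same lean in calls and medians, with lower counts. There, 6 of 33 inflammatory genes were lower (median -0.17) and 5 of 45 interferon genes (median -0.18), against 0.826% of all genes. Summed over the list, inflammatory genes had 7822 CPM in LPCAT3-AKO and 9855 CPM in Control Pi16-high cells. The interferon sum ran the other way there, at 13690 CPM in LPCAT3-AKO and 12960 CPM in Control. In preadipocytes the interferon sum was 8770 CPM in LPCAT3-AKO and 9687 CPM in Control. Immediate-early genes, which tissue digestion is known to induce, leaned lower as well in LPCAT3-AKO preadipocytes: 2 of 31 passed (Ccn1 and Ier5), 28 of 31 were below 0, and the median was -0.22. Heat shock genes had a median of -0.29, with 1 of 18 (Hspa1a) lower. The part of digestion stress in the inflammatory and interferon values was not tested. Macrophage genes, summed over a list of 24, had 723 CPM in LPCAT3-AKO and 747 CPM in Control preadipocytes, with Mrc1 alone passing the rule, at 22.7 CPM in LPCAT3-AKO and 40.0 CPM in Control.

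**Figure D5:**
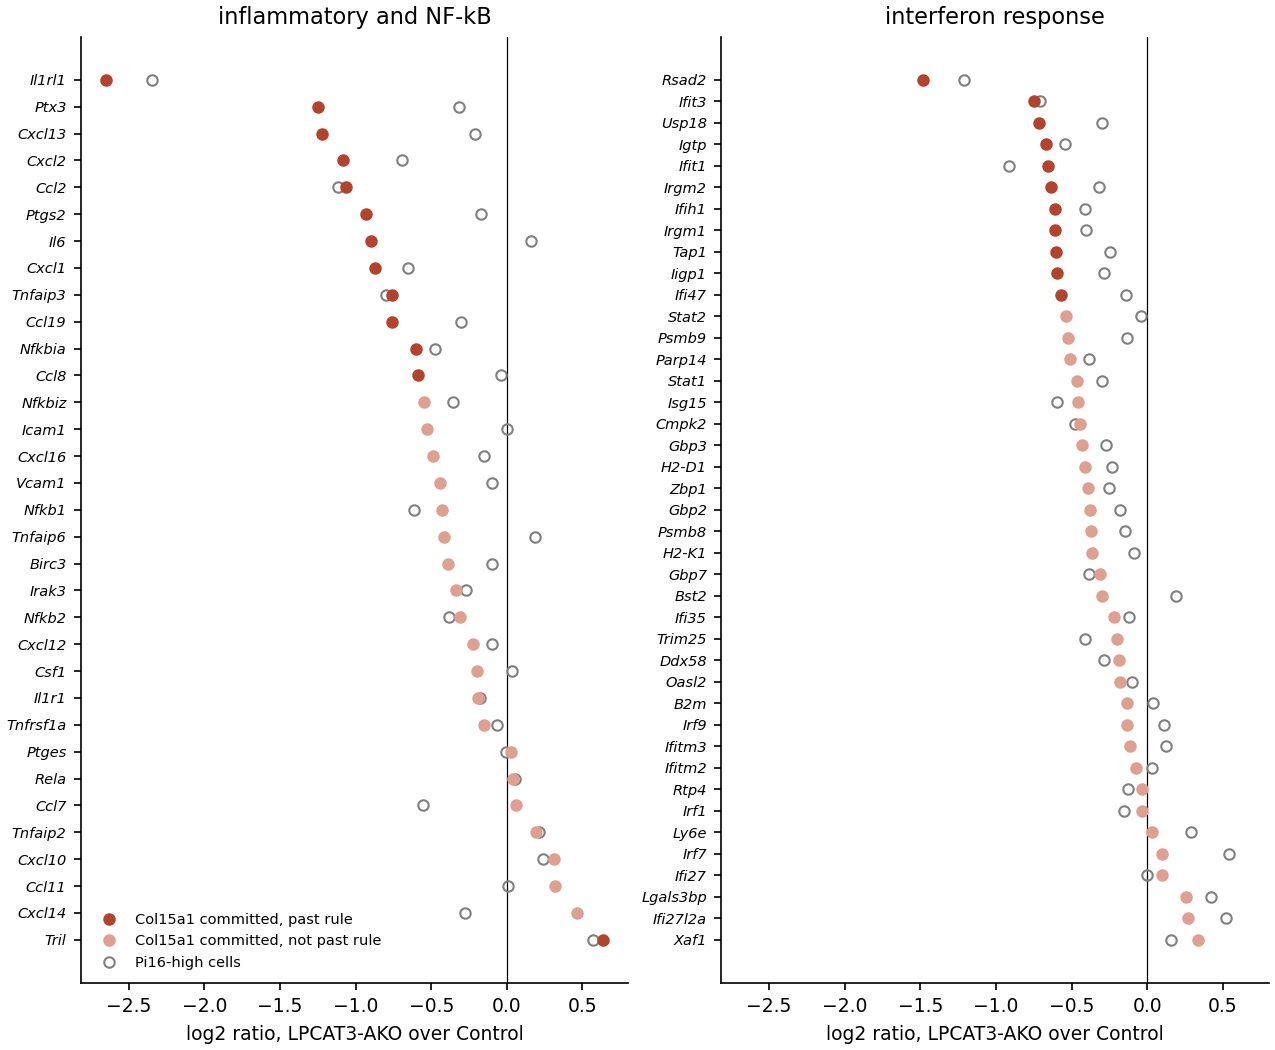
Log2 ratio of LPCAT3-AKO over Control (horizontal axis) for the listed inflammatory and NF-kB genes (left) and interferon-response genes (right) at 20 CPM or more, in committed preadipocytes (filled; dark where past the size rule) and Pi16-high cells (open). In preadipocytes 25 of 33 and 35 of 41 genes lie left of 0.

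Matrix genes leaned slightly the other way. Of 45 interstitial matrix genes, 3 were higher (Cilp, Mfap4 and Prelp) and 2 lower (Thbs1 and Thbs2), against 1.16% and 1.79% of all genes, but 41 had a log2 ratio above 0 and the median was 0.22. Prelp, a small leucine-rich proteoglycan, had 84.4 CPM in LPCAT3-AKO and 55.1 CPM in Control. Thbs1 (thrombospondin-1, a matrix signal of wounds) had 137 CPM in LPCAT3-AKO and 272 CPM in Control, and Thbs2 217 CPM in LPCAT3-AKO and 329 CPM in Control. Of 19 tested genes on the basement membrane list, 2 were higher and 0 lower, against the same shares of all genes, with a median of 0.20. Smoc2, a matricellular protein, had 199 CPM in LPCAT3-AKO and 109 CPM in Control, in 404 LPCAT3-AKO and 193 Control cells, against a log2 ratio of 0.09 in Pi16-high cells. Frem1 had 75.5 CPM in LPCAT3-AKO and 46.9 CPM in Control. Mgp, an inhibitor of calcification, had 275 CPM in LPCAT3-AKO and 167 CPM in Control. Loxl3, a collagen cross-linking oxidase, was higher, at 62.6 CPM in LPCAT3-AKO and 41.2 CPM in Control.

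Lipid-handling genes outside the storage list gave single calls. Apoe, the lipoprotein ligand that LXR induces, had 1188 CPM in LPCAT3-AKO and 1930 CPM in Control preadipocytes, a log2 ratio of -0.70. It passed the rule in the same direction in Pi16-high cells, at -0.77, in Fmo2/Inmt/Gdf10-high cells, at -0.78, and in cells low in Col15a1 and Pi16, at -0.60. Of 6188 genes in Fmo2/Inmt/Gdf10-high cells 1.92% were lower. Of 6543 genes in cells low in Col15a1 and Pi16, 3.9% were higher and 3.56% lower. Abca8b, a lipid transporter, was the one higher gene of 18 LXR targets and efflux genes, at 27.2 CPM in LPCAT3-AKO and 15.1 CPM in Control. Of 27 genes of phospholipid remodelling and phosphatidylcholine synthesis, Chka (choline kinase alpha, the entry step of phosphatidylcholine synthesis) was the one to pass. It had 16.1 CPM in LPCAT3-AKO and 25.3 CPM in Control, a log2 ratio of -0.62, with -0.71 in Pi16-high cells. Of 14 cholesterol synthesis genes, 15 desaturation and elongation genes, 9 fatty acid synthesis genes, 7 caveolae genes, 28 insulin and IGF genes, 25 unfolded protein response genes and 45 oxidative phosphorylation genes, 0 passed, with medians between -0.16 and 0.04.

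Car3 and Rbp4 were the only mature adipocyte genes to pass, both lower in LPCAT3-AKO. Rbp4 had 91.1 CPM in LPCAT3-AKO and 166 CPM in Control, in 363 LPCAT3-AKO and 309 Control cells, with log2 ratios of -0.86 in preadipocytes and -0.60 in Pi16-high cells. Car3 had a log2 ratio of -0.61, which was -0.25 without the top cell of each library and 0.51 without the 5% of Dcn-high cells with the most UMIs.

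Further calls were scattered over the remaining lists. Mt2, a metal-binding stress protein, had 548 CPM in LPCAT3-AKO and 939 CPM in Control, against a log2 ratio of 0.13 in Pi16-high cells, and Gclc, which starts glutathione synthesis, had 18.1 CPM in LPCAT3-AKO and 28.4 CPM in Control. C4b, an early complement component, had 195 CPM in LPCAT3-AKO and 306 CPM in Control, and C2, which works with it, 45.9 CPM in LPCAT3-AKO and 71.4 CPM in Control. Wnt2, a Wnt ligand, was higher, at 44.0 CPM in LPCAT3-AKO and 24.9 CPM in Control, with a log2 ratio of 0.80 that was 0.10 with Col15a1 tiers weighted alike, while Sfrp4 and Ccn5, both secreted Wnt modulators, were lower, at log2 ratios of -1.15 and -0.73. Sfrp4 had 33.2 CPM in LPCAT3-AKO and 74.9 CPM in Control, but the top Control cell held 133 of the 382 Control UMIs, and in cells with 3 or more Col15a1 UMIs its log2 ratio was 0.54. Hes1, a Notch target, was higher in LPCAT3-AKO, with a log2 ratio of 0.66, and in Pi16-high cells, with 0.73. Gas6, a ligand of TAM receptors, and Cd44, the hyaluronan receptor, were lower, at -0.75 and -0.63. Among IL-6 family genes Pim1 and Pim3, kinases that STAT3 induces, were lower, at -0.60 and -0.65.

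Single genes of several lists also passed. Ptgis (prostacyclin synthase) had 72.5 CPM in LPCAT3-AKO and 40.2 CPM in Control, while Ptgs2 had 18.3 CPM in LPCAT3-AKO and 35.9 CPM in Control. Tek, the angiopoietin receptor, had a log2 ratio of 0.62, Tagln, an actin-binding protein of contractile cells, 0.74, Ndrg1, a stress-induced protein, -0.61, and Opcml, a cell adhesion protein, -0.66. Lsmem1, Greb1 (an oestrogen-induced gene) and Nexmif complete the 12 lowest, at -1.98, -1.27 and -1.19. Greb1 and Nexmif passed in Pi16-high cells as well, at -0.62 and -1.08.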

How the data were processed

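The authors deposited raw UMI counts per gene and barcode for both libraries, unnormalized. Per the submitters' processing notes, Cell Ranger 6.1.2, the mm10 build and Seurat 4.10 were used; the counts show no Seurat step, and the annotation release is not given in the sources used here. Each library listed 32285 genes, and deposited barcodes held at least 505 (LPCAT3-AKO) and 500 (Control) UMIs. Barcodes with 500 or more genes and at most 10% mitochondrial UMIs were kept. The rule for these cells has no doublet step, and doublets were kept. An alternative removed the highest Scrublet scores per library (scanpy 1.11.5): 1088 LPCAT3-AKO and 1235 Control cells, among them 34 LPCAT3-AKO and 31 Control committed preadipocytes. Scrublet's own threshold called 4.80% of kept LPCAT3-AKO and 4.74% of kept Control cells.

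For each library and class, a gene's counts were added up over cells and scaled to the class total (CPM). The log2 ratios are of CPM + 1, so they understate low genes. Shares have exact (Clopper-Pearson) intervals, and a ratio's interval comes from the exact binomial of its 2 sums, both at 95%. Calculations used Python 3.11.15, numpy 2.4.6, scipy 1.17.1 and pandas 2.3.3, and the size rule was checked on simulated counts. Those counts carried counting error only, without spread between cells or libraries, so the check says nothing about such spread. Shares of cells with a UMI were computed on cells thinned to 4000 UMIs. The members, markers, gene lists and alternatives were chosen with earlier results of these data known. Genes named were the 12 highest and 12 lowest ratios past the rule between libraries, and the 15 highest and 10 lowest against other Dcn-high cells by the smaller absolute ratio. Mitochondrial, ribosomal, predicted, haemoglobin and immunoglobulin genes, genes of the rule and markers of other cells that no other list holds were left out of these picks. So were Xist, Tsix, Ddx3y, Eif2s3y, Kdm5d and Uty, but not other sex-linked genes. Also named were the 6 markers, the genes of the rule, Lpcat3 and up to 4 members of a list by level; further list members, Hbb-bs and Cma1 were chosen after their values were seen. Not every gene that the rule names is reported here.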

Additional observations from a re-analysis of the deposited data

Results flagged for a closer look

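For 4 genes the difference between the libraries ran one way in committed preadipocytes and past the size rule the opposite way in another stromal class. With 1 library per group, the difference between the classes was not tested in any case.

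Cxcl13, a B cell-attracting chemokine, had a log2 ratio of LPCAT3-AKO over Control of -1.22 in committed preadipocytes (30.1 CPM in LPCAT3-AKO, 71.4 CPM in Control), but of 1.60 in cells high in Fmo2, Inmt and Gdf10 (442 CPM in LPCAT3-AKO, 145 CPM in Control) and of 0.70 in cells low in Col15a1 and Pi16 (148 CPM in LPCAT3-AKO, 91.1 CPM in Control). In preadipocytes it came from 64 cells of each library. Ccl8, a monocyte-attracting chemokine, had -0.59 in preadipocytes and 0.76 in cells high in Fmo2, Inmt and Gdf10 (118 CPM in LPCAT3-AKO, 69.2 CPM in Control); 1 Control preadipocyte held 105 of its 326 Control UMIs, and without the top cells the value was -0.12.

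Ccn5, a secreted Wnt modulator, had -0.73 in preadipocytes and 1.48 in cells low in Col15a1 and Pi16 (76.4 CPM in LPCAT3-AKO, 26.7 CPM in Control). Frem1, a basement membrane adhesion protein, had 0.68 in preadipocytes and -1.11 in cells low in Col15a1 and Pi16 (15.5 CPM in LPCAT3-AKO, 34.6 CPM in Control). That class held only 186 LPCAT3-AKO and 192 Control cells, and 3.9% of 6543 genes were higher and 3.56% lower in it.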

How the results depend on the processing

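No paired analysis was possible because each group has 1 library, so no library could be left out either. The ratio of preadipocyte shares lay between 1.61 and 1.79 under the 10 alternatives run on the cells. The counts of called genes moved with the limits of the size rule. At a ratio of 2, 14 genes were higher and 16 lower between the libraries, and 283 higher and 380 lower against the other Dcn-high cells. At 50 CPM these counts were 23, 50, 310 and 394, and with no CPM minimum 356, 422, 1407 and 1256. With the rule applied to cells thinned to 4000 UMIs, 121 genes were higher between the libraries; the cause was not tested.

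Of the named genes' values between the libraries, 4 reversed. Sfrp4 had a log2 ratio of 0.54 at 3 or more Col15a1 UMIs and of 0.61 in thinned cells. Car3 had 0.24 in thinned cells and 0.51 without the 5% of Dcn-high cells with the most UMIs. The cause was not tested. A further 184 of these values no longer passed the size rule, 4 newly passed it and 1860 kept their side of it. Those that newly passed were Icam1 at 1 or more Col15a1 UMIs (-0.58), in thinned cells (-0.59) and with tiers weighted alike (-0.62), and Tsc22d3 in thinned cells (-0.59). The interferon list had 11 lower genes in the main setting. It had 4 to 7 at 50 CPM, at 1 or more Col15a1 UMIs, without doublet-like cells or with tiers weighted alike. At a ratio of 2 it had 1. The inflammatory list had 12 lower genes in the main setting and 5 at a ratio of 2. The removal of single top cells and of cells with other cell types' genes was added after the data had been seen. Depth limits genes such as Pparg, with a UMI in about 20.7% of LPCAT3-AKO and 19.9% of Control preadipocytes, and the spread between mice is unknown.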
